A study of Caenorhabditis elegans with 6 samples.

Results

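The genes described here are 10 genes of the C. elegans molt and of its apical extracellular matrix, namely mlt-8, mlt-9, mlt-10, mlt-11, noah-1, noah-2, fbn-1, let-653, lpr-3 and bli-5. They were chosen by gene symbol as molting-defective genes and components of the matrix that precedes the cuticle, and all 10 were found among the 31180 genes of the deposited table. The RNA came from whole animals of the wild-type strain N2 at L4, the last larval stage. The heat shock group (HS) was held at 35°C for 4 h and the control group (CTRL) stayed at 20°C, with 3 libraries per group, made after removal of ribosomal RNA. For every gene the table gives baseMean, the average of its normalized counts in the 6 libraries, together with a log2 fold change (HS over CTRL) and the standard error of that estimate. Values of single libraries were not analysed here, so errors are given as the standard errors of the table, and the sequencing depth of each library is unknown.

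The body of a nematode is covered by a collagenous cuticle that the epidermis secretes and replaces at each larval molt. Before each new cuticle is made, the epidermis and other external epithelia lay down a transient matrix of zona pellucida (ZP) domain proteins, lipocalins and other secreted proteins, which is later cleared. Many of the genes involved are switched on and off once in every larval stage, under regulators that include the nuclear receptor NHR-23. Because the RNA is from whole animals, a change in the number of expressing cells and a change in RNA per cell cannot be told apart. The point within L4 at which each group was collected is not given in the sources used here, so that heat and a difference in larval timing between HS and CTRL cannot be told apart.

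All 10 genes had higher estimates in HS than in CTRL. A gene was called if its change was 2-fold or more, its adjusted p was below 0.01 (here and throughout, from the Wald test with Benjamini-Hochberg adjustment over the 21477 genes that have an adjusted p-value in the table) and its baseMean was 100 or more. Of the 8 members that met this baseMean and have an adjusted p-value, 8 were upregulated and 0 were downregulated, and 0 members were lower in HS at an unadjusted p under 0.05. Over all 9828 protein-coding genes (PCGs) tested, 11.3% were upregulated and 8.14% downregulated. The remaining members were let-653, which lies below the baseMean minimum, and lpr-3, for which no p-value is listed. The median log2 fold change of the 10 genes was 4.29 (19.6-fold), with a range from 0.85 to 6.05, whereas the median of the tested PCGs was -0.09. Of the tested PCGs, 70 had a larger log2 fold change than mlt-9, the highest member, and 676 had a larger one than fbn-1, the lowest member called. Summed over the 10 genes, the group means implied by baseMean and fold change (worked out as for mlt-8 in the account of the mlt genes) came to 15027 normalized counts in HS and 659 in CTRL. Because baseMean averages both groups, mlt-9, mlt-10, mlt-11, fbn-1 and bli-5 met the minimum through HS. Implied CTRL means of these genes ran from 18.4 to 84.2, so the minimum was tied to the rise. With no minimum, 8 of the 9 members with an adjusted p-value were upregulated, against 10.9% of PCGs. The median of all genes with a p-value, most of them weakly expressed, was 0.76.

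**Figure D1:**
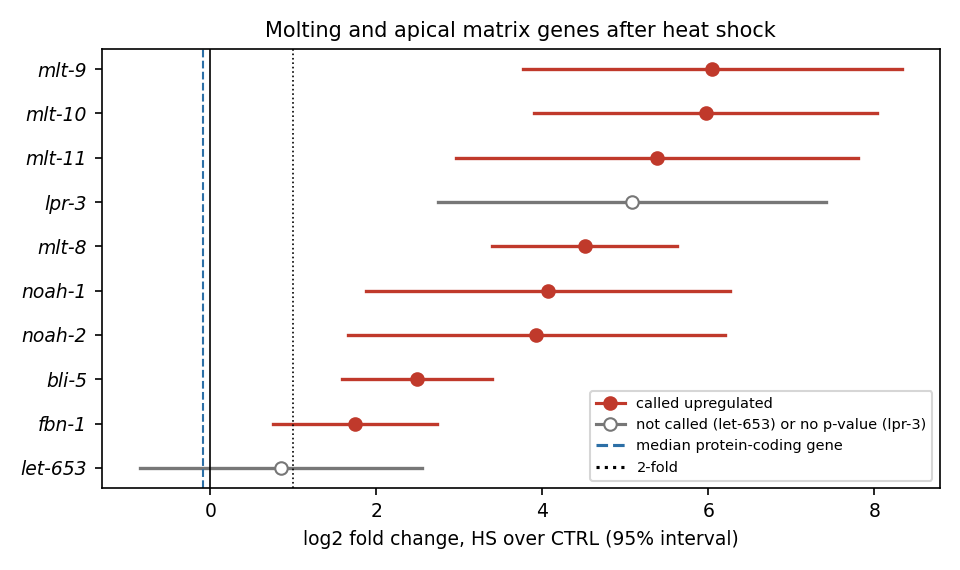
Each of the 10 genes is plotted by its log2 fold change, HS over CTRL (x axis), with its 95% interval as a bar; filled points are called upregulated, and open points are let-653 (not called) and lpr-3 (no p-value listed). Estimates run from 0.85 for let-653 to 6.05 for mlt-9, and the let-653 interval alone reaches below 0.

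The 3 genes mlt-8, mlt-9 and mlt-10 were named for the failed molts of animals that lack them. mlt-9 (WBGene00008605; chromosome X, 15101786 to 15107797, minus strand, WBcel235) had the largest estimate of the 10, a log2 fold change of 6.05 (standard error 1.16) or 66.2-fold, with a 95% interval of 13.6-fold to 322-fold and an adjusted p of 3.02e-06. mlt-10 (WBGene00015646; chromosome II, 546705 to 552032, plus strand), which encodes the founding member of a family of proline-rich repeat proteins, followed with 5.97 (standard error 1.05), or 62.6-fold (adjusted p 2.89e-07). mlt-8 (WBGene00021095; chromosome II, 569210 to 572110, minus strand) lies 17177 bp beyond the end of mlt-10. Its log2 fold change of 4.51 was smaller, but its standard error of 0.57 was about the size seen for fbn-1 and bli-5, so that its adjusted p of 1.01e-13 was the lowest among the members. The 95% interval of mlt-8, 10.5-fold to 49.4-fold, overlaps that of mlt-9 and begins below it.

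If the ratio of the group means equals the listed fold change, baseMean implies a mean of 2827 normalized counts in HS and 124 in CTRL for mlt-8. The implied means of mlt-10 were 2780 in HS and 44.4 in CTRL, and those of mlt-9 were 1217 in HS and 18.4 in CTRL. The CTRL means of mlt-9 and mlt-10 were thus lower than that of mlt-8, and their fold changes are ratios to small values. Per kilobase of merged exons, which allows genes to be compared, mlt-8 had the highest baseMean of the 10 genes, at 1334, followed by mlt-10 at 604. The lowest values per kilobase were those of let-653 and, above it, fbn-1 at 19.1.

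**Figure D2:**
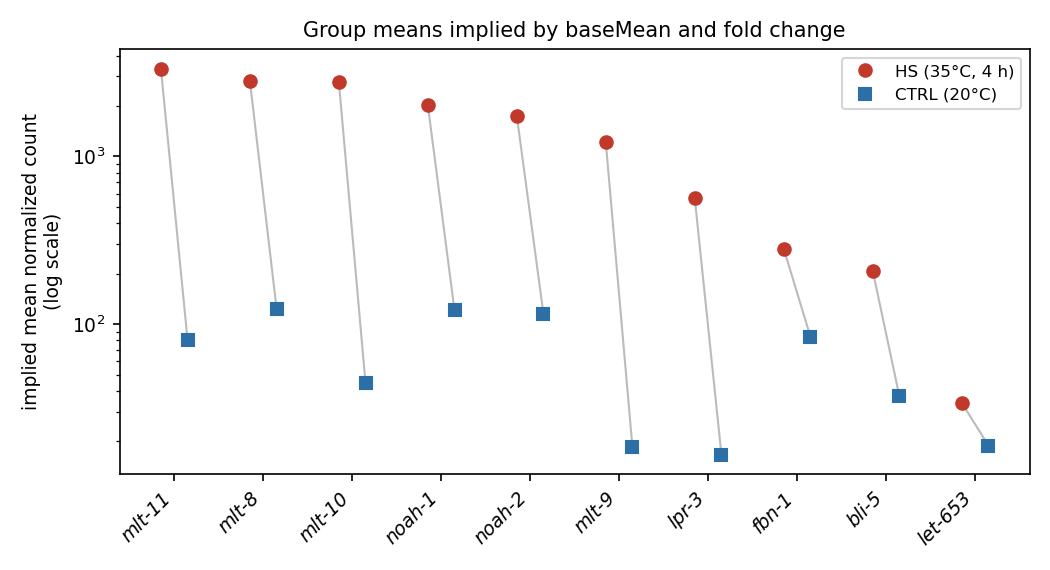
Implied mean normalized counts (y axis, log scale) are shown for HS (circles) and CTRL (squares), joined for each gene, as worked out from baseMean and the fold change. The HS means run from 3345 for mlt-11 to 34.0 for let-653, and the CTRL means lie between 16.6 for lpr-3 and 124 for mlt-8.

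Both members with Kunitz-type protease inhibitor domains, a fold that blocks serine proteases in other animals, were upregulated, with unequal estimates. mlt-11 (WBGene00012186; chromosome V, 20667205 to 20678537, plus strand) has 9796 bp of merged exons and had the highest baseMean of the members, 1712. Its log2 fold change was 5.38 (standard error 1.24, the largest of the 10), or 41.8-fold with a 95% interval of 7.79-fold to 224-fold (adjusted p 0.00013). The implied means of mlt-11 were 3345 normalized counts in HS and 80.1 in CTRL. bli-5 (WBGene00000255; chromosome III, 13427640 to 13429768, minus strand), named for the blistered cuticle of its mutants, is a short gene with 747 bp of merged exons. Its log2 fold change of 2.49 had the smallest standard error of the 10, 0.46, which gives 5.61-fold with an interval of 3.00-fold to 10.5-fold (adjusted p 1.08e-06). The implied means of bli-5 were 208 in HS and 37.1 in CTRL. The intervals of mlt-11 and bli-5 overlap, and the difference between them was not tested, since both estimates come from the same libraries.

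The 4 matrix proteins with a ZP domain, a module through which extracellular proteins polymerize, had estimates between 0.85 and 4.07 on the log2 scale. noah-1 (WBGene00016422; chromosome I, 5874416 to 5878958, minus strand) and noah-2 (WBGene00009926; chromosome IV, 14091254 to 14096626, plus strand) are a related pair with similarity to NompA, a matrix protein of Drosophila sense organs. They lie on separate chromosomes and had nearly the same values. The log2 fold change was 4.07 (standard error 1.12) for noah-1 and 3.93 (standard error 1.16) for noah-2, with adjusted p-values of 0.00183 and 0.00396. The implied means of noah-1 were 2027 normalized counts in HS and 121 in CTRL, and those of noah-2 were 1745 in HS and 115 in CTRL. These rises of 16.8-fold and 15.2-fold are uncertain in size, as the 95% intervals extend down to 3.68-fold and 3.17-fold.

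fbn-1 (WBGene00022816; chromosome III, 7625386 to 7641078, plus strand) encodes a fibrillin-like protein that helps the epidermis withstand mechanical strain. It was upregulated to a smaller extent, with a log2 fold change of 1.74 (standard error 0.51) or 3.34-fold (interval 1.68-fold to 6.65-fold, adjusted p 0.00345) and implied means of 281 normalized counts in HS and 84.2 in CTRL. let-653 (WBGene00002827; chromosome IV, 11885613 to 11891082, plus strand), whose product keeps narrow tubes such as the excretory duct open, was not called. Its baseMean was 26.4, with implied means of 34.0 in HS and 18.9 in CTRL, and its log2 fold change of 0.85 (standard error 0.87, adjusted p 0.479) had a 95% interval from 0.555-fold to 5.85-fold. This interval holds both no change and the 3.34-fold estimate of fbn-1, but not the estimates of noah-1 and noah-2.

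lpr-3 (WBGene00012261; chromosome X, 11057401 to 11059793, plus strand) encodes a secreted lipocalin, a class of proteins that carry lipids, and is needed for an intact apical matrix. Its estimate in the table is 5.08 on the log2 scale (standard error 1.19), that is 33.9-fold with a 95% interval of 6.70-fold to 171-fold, and its p-value is missing. By default, DESeq2 withholds the p-value of a gene when the count of a single library is marked as an outlier, and which library this was cannot be seen in the table. lpr-3 was therefore not called, and its estimate is given as a description. When its Wald p-value was computed from the listed estimate nevertheless, a step chosen after the data were seen, the adjusted p was 0.000191. That value uses the same estimate and standard error, so it does not replace the withheld one.

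Another 3 lipocalin-related genes, lpr-6, lpr-5 and lpr-4, follow lpr-3 in this order on the same strand of chromosome X, separated by gaps of 200 bp, 251 bp and 586 bp. The 4 genes span 9411 bp, with 0 other PCGs among them. Each of the neighbours was upregulated, with log2 fold changes of 4.78 for lpr-6 (standard error 1.37, adjusted p 0.00308), 6.25 for lpr-5 (1.16, 1.15e-06) and 4.51 for lpr-4 (0.81, 5.15e-07). The intervals of all 4 genes overlap. Gene totals do not show whether reads continue from one gene into the next. lpr-7, elsewhere on the same chromosome, also rose (log2 fold change 5.20, standard error 0.55). On chromosome I, lpr-1 had a log2 fold change of 5.23 (standard error 0.76, adjusted p 1.9e-10), but its baseMean of 48.9 was below the minimum for a call. In contrast, lpr-2 on chromosome IV had a log2 fold change of 0.25 (standard error 0.34) and was not called.

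**Figure D3:**
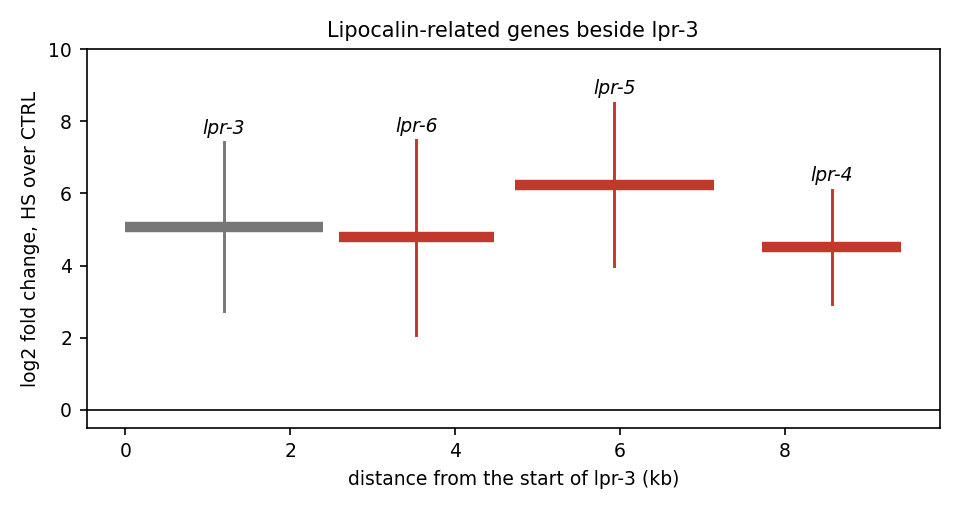
The log2 fold change, HS over CTRL (y axis), of lpr-3, lpr-6, lpr-5 and lpr-4 is plotted against the distance in kb from the start of lpr-3, with horizontal bars for the extent of each gene and vertical lines for the 95% interval; grey marks lpr-3, which has no p-value. The estimates lie between 4.51 for lpr-4 and 6.25 for lpr-5, and every interval stays above 0.

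Most of these genes also had large standard errors. The median standard error of the 10 members was 1.09, against 0.28 for the tested PCGs, whose quartiles were 0.23 and 0.35. A standard error of at least 1 was found for 6 members, namely mlt-9, mlt-10, mlt-11, noah-1, noah-2 and lpr-3, compared with 165 of the 9828 tested PCGs (1.68%). mlt-8 stood at percentile 95.5 of the tested PCGs, fbn-1 at 93.5 and bli-5 at 90.6, while let-653, with a baseMean of 26.4, stood at 97.7. A standard error reflects both the spread between libraries of a group and low counts. Implied CTRL means of mlt-11, noah-1, noah-2 and mlt-10 were 80.1, 121, 115 and 44.4. That of bli-5, with a standard error of 0.46, was 37.1, and those of mlt-9 and lpr-3 were 18.4 and 16.6. The share of each source was not tested, and the group in which libraries differed cannot be read from the table. Of the 165 PCGs with a standard error of at least 1, 67 (40.6%) were upregulated and 6 were downregulated.

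**Figure D4:**
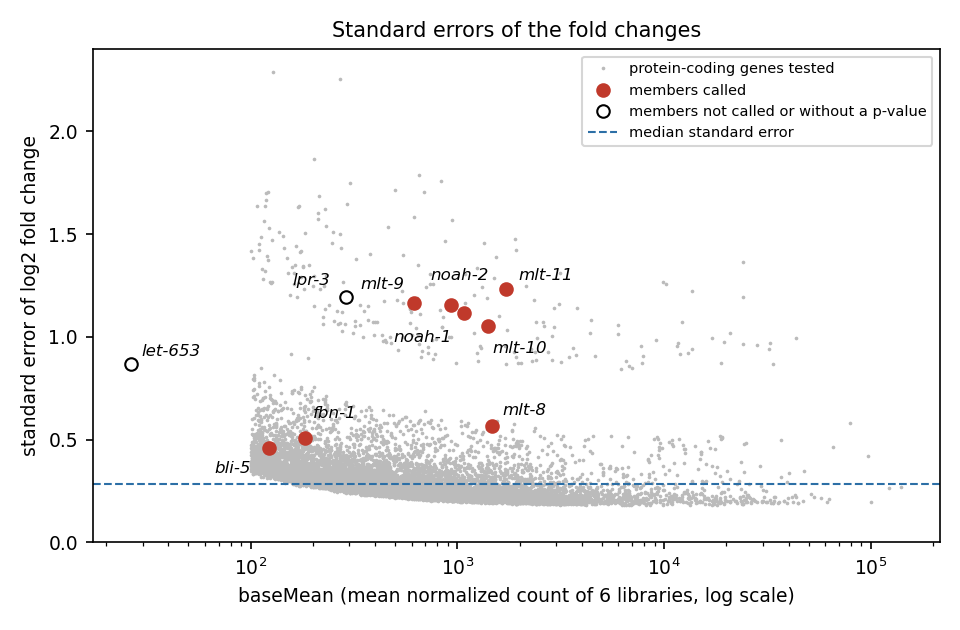
Standard errors of log2 fold changes (y axis) are plotted against baseMean (x axis, log scale) for the tested PCGs (grey) and the 10 members; open circles are let-653 and lpr-3, and the dashed line is the median standard error of 0.28. mlt-9, mlt-10, mlt-11, noah-1, noah-2 and lpr-3 lie above 1, where tested PCGs are sparse (1.68% at 1 or more). mlt-8, fbn-1 and bli-5 lie lower, between 0.46 and 0.57. Tested PCGs also lie in between, such as lpr-4 at 0.81.

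Reads from adjacent or overlapping genes can enter a gene total. The closest same-strand PCG upstream was taken among genes that do not overlap the member. Among the 10 members, 1 had an upregulated gene there, namely mlt-10, where lgc-34 lies 16330 bp away with a log2 fold change of 1.00. A downregulated one was found for 1, mlt-11 (W01F3.2, log2 fold change -1.60, gap 5167 bp). For let-653, the upstream gene cutl-27, which encodes a cuticlin-like ZP protein, lies 1478 bp away and had a log2 fold change of 4.13 (standard error 0.93) at a baseMean of 29.6, below the minimum for a call. mlt-10 shares 109 bp of exon with lips-7 on the same strand, a lipase-like gene that also rose (log2 fold change 4.08, standard error 0.62). mlt-11 shares exon sequence on the same strand with a pair of ncRNA genes, W01F3.5 (112 bp, log2 fold change 4.80, standard error 1.10, adjusted p 0.000137) and W01F3.4 (90 bp, log2 fold change 8.24, standard error 3.91, adjusted p 0.0925), at a baseMean of 29.9 and 19.2. The part of these overlaps in the mlt-10 and mlt-11 totals was not tested. fbn-1 shares 45 bp of exon with upp-1 on the other strand, which fell by 1.69 on the log2 scale, and bli-5 shares 82 bp with cope-1 on the other strand (log2 fold change -0.03). The libraries were made with a stranded kit, but whether strand was used in counting is not given in the sources used here.

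Genes that act with the members in the molt were followed through lists that were fixed by name, with earlier results of these data known. Among 26 regulators and effectors of molting, 22 were tested, of which 13 were upregulated and 0 downregulated, with a median log2 fold change of 1.79. The largest rises were those of bed-3, a zinc-finger gene needed for the molts (6.25, standard error 0.60), and ptr-18, a Patched-related gene (5.78, standard error 0.96). The smallest rises among the calls were those of nas-38, an astacin-type metalloprotease gene (1.69, standard error 0.43), and pan-1, which encodes a transmembrane protein with leucine-rich repeats (1.76, standard error 0.43). nhr-23, the receptor gene that is required for many molting genes to be expressed, had a log2 fold change of -0.25 (standard error 0.27, adjusted p 0.502) and was not called, while lin-42, the Period homolog that times the molts, rose by 3.41 (standard error 0.67). The astacin gene nas-37, whose product helps to open the old cuticle, had no p-value (log2 fold change 0.56, standard error 1.09).

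Of 13 further apical matrix and lipocalin-related genes, 10 were tested, and 6 were upregulated and 1 downregulated. Among the genes called upregulated, lpr-5 and lpr-7, given above, rose most, and let-4 rose least (2.56, standard error 0.67). egg-6, which like let-4 encodes a leucine-rich repeat protein of apical surfaces, was the downregulated gene and fell by 2.09 (standard error 0.25). Among the paralogs of mlt-10, 12 of 13 symbols were found but only mltn-3 and mltn-9 reached the baseMean minimum, and both were upregulated, by 5.28 (standard error 0.79) and 3.58 (standard error 0.73). With implied CTRL means of 6.92 and 24.4, both reached that minimum through HS, so the minimum was tied to the rise. mltn-9 contains the snoRNA gene F19H8.6 on the same strand, which had a log2 fold change of 6.91 and a baseMean of 2159 against 158 for mltn-9, so the mltn-9 total is uncertain. With no baseMean minimum, 6 of the 12 paralogs were called upregulated and 0 downregulated. Of all PCGs with an adjusted p-value, 10.9% were then upregulated and 6.14% downregulated. Estimates were positive for 11 of the 12 paralogs. That of mltn-10 was -2.31 (standard error 0.81), and it missed the threshold for a call with an adjusted p of 0.0173.

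The list of cuticle assembly enzymes and blister genes was mixed, with 5 of 10 tested genes upregulated and 0 downregulated. Among these calls, the collagen genes bli-2 (6.65, standard error 1.18) and bli-6 (3.58, standard error 0.46) rose most. The calls that rose least were phy-2 (1.74, standard error 0.44), which encodes a collagen prolyl hydroxylase subunit, and pdi-2 (1.46, standard error 0.35), which encodes a protein disulfide isomerase. bli-1 resembled lpr-3 in having a large estimate (6.14, standard error 1.14) but no p-value. All 6 furrow collagens, which build the circumferential furrows of the cuticle, were upregulated. With implied CTRL means between 3.44 for dpy-3 and 36.2 for dpy-10, these genes met the baseMean minimum through HS. All 6 were also called with no minimum, against 10.9% of PCGs. Their log2 fold changes ranged from 3.19 for dpy-10 (standard error 0.72) and 3.71 for dpy-9 (standard error 0.65) to 5.61 for dpy-7 (standard error 1.15) and 6.45 for dpy-3 (standard error 1.31), and their median of 4.59 was close to that of the members. Their median standard error, 1.09, was also close to that of the members. Since all these genes were measured in the same libraries, the lists are not independent of the members.

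**Figure D5:**
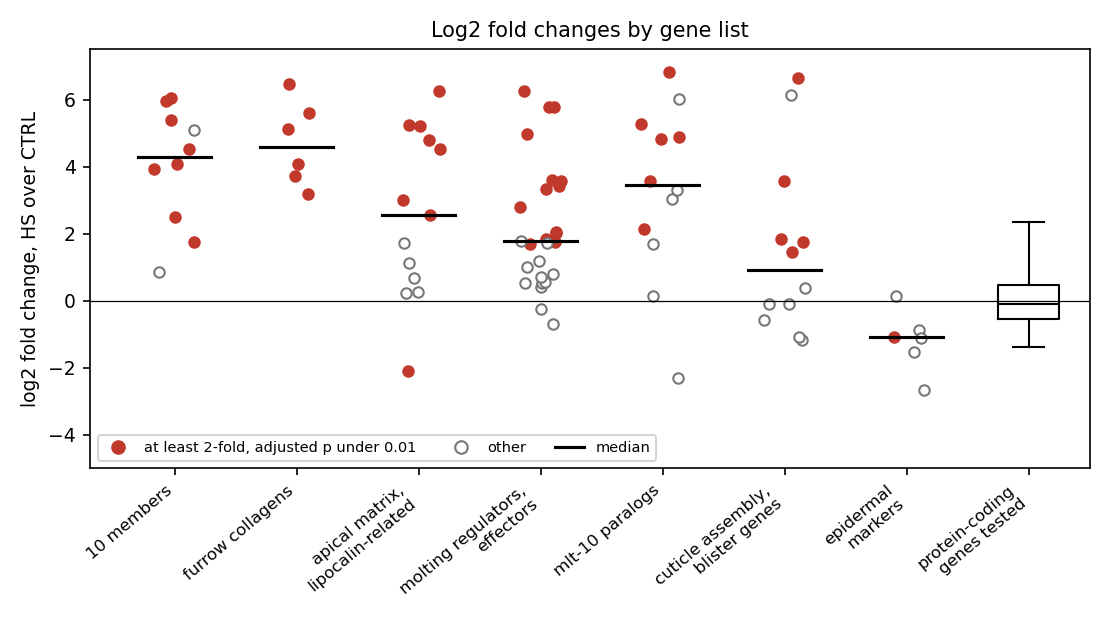
The log2 fold change, HS over CTRL (y axis), is shown for every gene found in each list; filled points passed the fold and adjusted p thresholds at any baseMean, short lines are medians, and the box shows the tested PCGs (quartiles, whiskers at percentiles 5 and 95). The members and the furrow collagens have medians of 4.29 and 4.59. The 6 epidermal markers have a median of -1.10, and the 3 of them that were tested have a median of -0.89. Among the 6, nhr-73 and ceh-16 have a baseMean of only 1.90 and 0.81.

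Markers of the tissues in the animal were compared in the same way, for their levels may move with the proportion of each tissue in the RNA. Of 6 epidermal markers found, all transcription factor genes, 3 were tested, 0 were upregulated and lin-26, which maintains epidermal fate, was downregulated (log2 fold change -1.07, standard error 0.22). elt-1 and elt-3 had log2 fold changes of 0.13 and -0.89 and were not called. All 4 body wall muscle markers had positive log2 fold changes, between 0.96 and 1.26 (median 1.02), and 1 of the 3 tested, the myosin gene myo-3, was upregulated (1.26, standard error 0.32). All 4 pharynx markers were likewise positive, between 0.75 and 1.05 (median 0.94), and 1 of the 4 tested, the myosin gene myo-2, was upregulated (1.05, standard error 0.29). For intestine, neurons and germ line, 0 of 4 markers each were called, and the medians were 0.12, -0.21 and -0.58. The part of these shifts in the rise of the members was not tested.

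All calls of members depend on how a rise is defined, and those of noah-1, noah-2, fbn-1 and bli-5 were lost under more of the settings tried. When the fold change had to exceed 2-fold by the test itself, 4 members (mlt-8, mlt-9, mlt-10 and mlt-11) remained upregulated, and when Wald statistics were read against a t distribution with 4 degrees of freedom, neither a member nor any other PCG passed. Relative to the median of all genes, fbn-1 fell below the 2-fold threshold (log2 fold change 0.98) and noah-2 missed the adjusted p threshold (0.0158).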

How the data were processed

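The authors trimmed reads with fastq-mcf, aligned them to genome WS235 with STAR, counted them per gene (FeatureCounts, an Ensembl annotation of an earlier release than the one used here) and tested HS against CTRL with DESeq2 (3 libraries each). Tool versions are not given in the sources used here. The signal of each gene (baseMean) was deposited as counts divided by size factors and averaged over the 6 libraries. The log2 fold change with its standard error, the Wald score, and the p-value with its adjusted form were deposited by the authors from that fit, and the table holds no values of single libraries. The genome-wide fit was therefore reused: p-values were recomputed from log2 fold change and standard error (2-sided, normal distribution) and adjusted by Benjamini-Hochberg over the 21477 genes with a deposited adjusted p-value. Recomputed and deposited adjusted values differed by at most 6.16e-15. Calls required at least 2-fold, adjusted p under 0.01 and baseMean of at least 100.

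Gene symbols, biotypes, positions and exon lengths came from the Ensembl release 115 annotation of WBcel235 and its symbol table. Of 107 symbols in the lists, 2 (mltn-4 and elt-5) were not matched. Implied group means assume that the ratio of group means equals the fold change and that baseMean is their average. Members and lists were chosen with earlier results of these data known. Named genes are the members, the called genes at both ends of each list, nhr-23, lin-42 and called upstream neighbours. Those added after their values were seen are bli-1, nas-37, cutl-27, lips-7, W01F3.4, W01F3.5, upp-1, cope-1, F19H8.6, mltn-10, elt-1, elt-3, nhr-73, ceh-16, lpr-1, lpr-2, lpr-4, lpr-6 and the genes under the closing observations. The test was run on simulated data for this comparison over 10340 genes. There, 98% of 200 genes changed by 3 on the log2 scale were recovered. The noise was drawn from a normal distribution with the listed standard errors, so neither that distribution nor these errors were checked. The changed genes were picked at random. As the median standard error is 0.28 for tested PCGs and 1.09 for the members, the 98% does not carry over to the members. p-values rest on the spread between 3 libraries per group, described as independent biological replicates in the study's methods. Computation used scipy 1.17.1, numpy 2.4.6 and pandas 2.3.3 under Python 3.11.15, and plots used matplotlib 3.10.9.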

Additional observations from a re-analysis of the deposited data

How the results depend on the processing

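The count of upregulated members was 8 or within 1.5 times of 8 (6 to 9) under 9 of 11 alternatives: baseMean minimums of 10 and 0, an adjusted p under 0.05, a 4-fold threshold (7 members, without fbn-1), p-value adjustment over all genes or over PCGs alone, centring on the median PCG or on the median of all genes (6 members), and p-values recomputed for the genes set aside (9 members, chosen after seeing the data). The other 2 gave 4 members, with 4.49% of PCGs upregulated (test against a 2-fold change), and 0 members, with 0% of PCGs (t distribution with 4 degrees of freedom). With the t distribution, 8 members were higher in HS at an unadjusted p under 0.05. The share of all PCGs at that cut was not worked out, so this count has nothing to be compared with. Downregulated members numbered 0 throughout. Centring on the median of all genes moved the calls over tested PCGs to 5.89% up and 39.8% down.

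No paired analysis was possible because values of single libraries were not analysed here, and for the same reason no replicate was left out and no other size factors were tried. Promoter motifs were not searched, since no sequence was at hand. Levels per kilobase of coding sequence were within 1.5 times of those per kilobase of exon for all 10 members.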

Other observations

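The missing p-value of lpr-3 belongs to a small set that was examined after its values were seen. Of 31180 genes, 44 have no p-value, of which 43 are PCGs, and 43 of the 44 had a positive log2 fold change. Of the 37 PCGs in this set with a baseMean of at least 100, 35 had estimates at least 2-fold higher in HS, and over all 37 the median estimate was 5.53 on the log2 scale (median standard error 1.29). Besides lpr-3, bli-1 and nas-37, they include the collagen genes lon-3 (6.48), col-79 (4.47) and col-110 (5.14) and the ground-like genes grl-7 (6.90) and grl-15 (5.38), whose log2 fold changes are given in parentheses. When p-values were computed from the listed estimates, 32 of the 44 passed the thresholds for an upregulated gene, and 11.6% of PCGs were then upregulated. These p-values use the same estimates and standard errors, so they do not replace the withheld ones or establish a rise. A list of upregulated genes drawn from the adjusted p-values alone cannot hold any of the 44, whatever their change.

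Among the 165 tested PCGs with a standard error of at least 1, the most frequent symbol prefix was col-, with 15 of 100 tested col- genes, followed by fipr- with 8 of 13 and abu- with 5 of 9. The prefixes were read off after the values were seen, and no test was made of them.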
